A study of Homo sapiens with 4 samples.

Results

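Heparan sulfate proteoglycans and the enzymes that edit their sulfate outside the cell were compared between Cal51R and Cal51. Cal51 is a triple-negative breast cancer cell line, and Cal51R is its counterpart that resists doxorubicin, an anthracycline that poisons topoisomerase II. The study set out to find deubiquitinases tied to that resistance, and polyadenylated RNA was sequenced from 2 libraries of Cal51R and 2 of Cal51. The labels give each line by its name alone, with no treatment, passage or clone, and do not say how Cal51R was obtained. They do not state either that libraries of the same line are separate cultures, and every p below measures the scatter among these libraries alone, which may be technical. The 10 genes described are 5 glypicans (GPC1, GPC2, GPC3, GPC4 and GPC6), 3 syndecans (SDC1, SDC2 and SDC4) and both heparan sulfatases (SULF1 and SULF2), taken by symbol from a table of 17215 genes. They were picked with the difference between the lines already known, so that difference is given for them as a description, without a p-value. How many of them passed a threshold is stated below but not read as a result. Of the other members of the families, GPC5 and SDC3 were in the table and are given beside them.

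Heparan sulfate is a long sugar chain that binds growth factors, morphogens and chemokines through its sulfate groups and presents them to their receptors. Glypicans carry these chains close to the membrane and are held there by a glycolipid anchor, whereas syndecans span the membrane and also bind the cytoskeleton and adaptor proteins through their tails. The heparan sulfatases are secreted enzymes that remove sulfate from the 6-O position of glucosamine outside the cell, and so change which ligands the chain can bind. In breast epithelium and its tumours SDC1 and SDC4 are known as the common epithelial syndecans, and GPC1 as a glypican raised in some carcinomas.

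The libraries held 17852379 and 19854849 estimated reads for Cal51R and 21636996 and 18537714 for Cal51. Differences are given in CPM, reads scaled to library size, and levels in TPM, which also allows for transcript length. A floor of 3 reads, a convention used here for bounds, lay between 0.139 and 0.175 CPM. Of 5 epithelial markers 4 reached 1 TPM in every library, and they summed to 9547.51 to 10662.13 TPM in Cal51R and 17247.94 to 18577.2 TPM in Cal51, mostly KRT8 and KRT18. KRT19 of that list went the other way, with 148 and 149 TPM in Cal51R and 5.55 and 5.10 TPM in Cal51. The epithelial cadherin gene CDH1 averaged 1.25 TPM in Cal51R and 0.49 TPM in Cal51. The hormone receptor gene ESR1 averaged 1.68 TPM in Cal51R and 0.955 TPM in Cal51, on 33 and 56 reads in Cal51R and 32 and 19 in Cal51. ERBB2, the other breast receptor gene in the table, had 90.93 and 83.57 TPM in Cal51R and 83.85 and 79.36 TPM in Cal51, with overlap. Of 7 fibroblast markers, 2 reached 1 TPM in both Cal51R libraries and 3 in both Cal51 libraries, and they summed to 192 to 201 TPM in Cal51R and 649 to 744 TPM in Cal51, mostly COL1A2. PDGFRB of that list had 0.18 and 0.28 TPM in Cal51R and 27.1 and 23.9 TPM in Cal51. COL1A1 averaged 3.04 TPM in Cal51R and 3.735 TPM in Cal51. The fibroblast markers LUM, DCN, FAP and THY1 averaged at most 0.085 TPM in either line. Of 3 mesenchymal markers, 2 reached 1 TPM in both Cal51R libraries and 3 in both Cal51 libraries, with sums of 451 to 482 TPM in Cal51R and 573 to 590 TPM in Cal51, mostly VIM. CDH2 of that list averaged 0.295 TPM in Cal51R and 1.57 TPM in Cal51. ZEB1 of that list went the other way, with 12.9 and 13.2 TPM in Cal51R and 9.81 and 8.94 TPM in Cal51. Of 4 leukocyte markers, PTPRC and CD68 reached 1 TPM in both Cal51R libraries, and CD68 and CD14 in both Cal51 libraries, with sums of 3.44 to 4.12 TPM in Cal51R and 18.9 to 19.3 TPM in Cal51. Of 4 endothelial markers, 3 reached it in both Cal51R libraries and 2 in both Cal51 libraries, with sums of 93.1 to 104 TPM in Cal51R and 29.3 to 33.1 TPM in Cal51, mostly PECAM1. Of 3 hepatocyte markers, 2 were among the 17215 genes. APOA1 averaged 1.75 TPM in Cal51R and 11.1 TPM in Cal51, and ALB 0.055 TPM in Cal51R and 0.05 TPM in Cal51. The part of these markers in the differences below was not tested.

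Libraries were scaled by TMM, a method that takes most genes as unchanged, and on that scale 70.8% of 13674 genes passed an adjusted p of 0.05 (edgeR's quasi-likelihood test), 35.3% higher and 35.5% lower in Cal51R. Of the 10 genes, 9 had enough reads to enter that fit and GPC6 did not, and GPC3 and SULF1 entered it through the Cal51 libraries alone. All 9 that entered also passed, 3 with a higher level and 6 with a lower level in Cal51R. Those at least 2-fold higher numbered 2, where 13.7% of all genes tested were, and those at least 2-fold lower numbered 4, where 9.87% were. They were picked on this comparison, so nothing is read from these counts. Scaling by library totals instead raised the log2 fold change of the median gene by 0.20, and 64.7% of called genes were then higher in Cal51R, against 49.9% with TMM.

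Levels are first given per transcript length, in the authors' TPM, which allows different genes to be set side by side within a library. In bulk RNA, fewer cells with a transcript and less of it per cell cannot be told apart, and that holds for every value here. SDC4 was the highest of the genes in every library, with 473 and 507 TPM in Cal51R and 545 and 537 TPM in Cal51, and 98.5% to 98.7% of all genes lay below it in each library. In Cal51R the order then ran SDC2, GPC1, SDC1, SULF2, GPC4, GPC2 and GPC6, with GPC3 and SULF1 listed at 0, and no neighbours in that order overlapped between libraries. In Cal51 it ran SDC2, SDC1, GPC4, GPC1, GPC3, SULF1, SULF2, GPC2 and GPC6. Of the neighbours in the Cal51 order, SDC1 at 95.5 and 93.5 TPM and GPC4 at 94.4 and 85.6 TPM overlapped. The lines thus shared SDC4 and SDC2 at the top of the order and GPC6 at or near its foot, and differed in the order of the genes between.

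**Figure D1:**
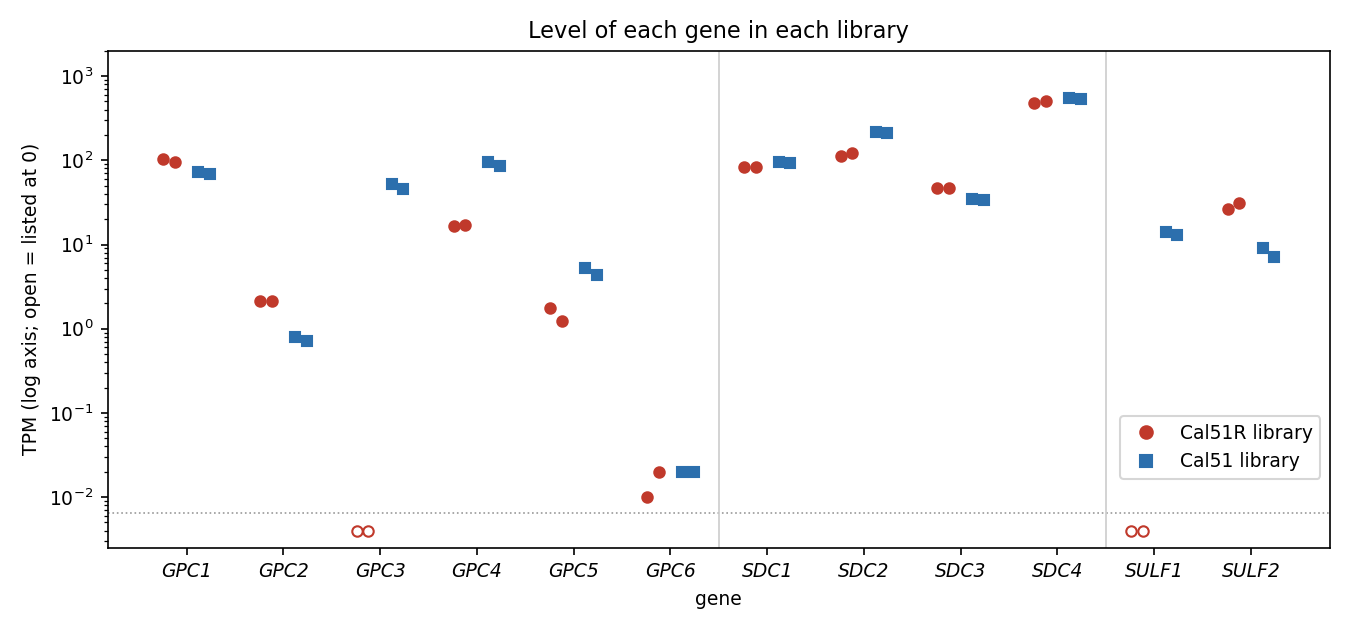
Level of each gene in each library, in TPM on a log axis, with Cal51R libraries as red circles left of Cal51 libraries as blue squares. Open circles under the dotted line are values listed at 0, which are the 2 Cal51R libraries of GPC3 and of SULF1. SDC4 is highest in all 4 libraries and GPC6 is at or below 0.02 TPM in all 4.

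The composition of each family was taken as each gene's share of the summed TPM of the family, GPC5 and SDC3 included. The glypicans summed to 124 and 115 TPM in Cal51R and 225 and 206 TPM in Cal51. GPC1 made up 82.9% ± 1.00 of that sum in Cal51R and 32.8% ± 0.892 in Cal51 (SD, n = 2 each, as for all shares here). GPC4 made up 13.2% and 14.9% in the Cal51R libraries and 41.9% and 41.7% in the Cal51 libraries, and GPC3 made up 0% in Cal51R and 22.8% ± 0.565 in Cal51. The glypican RNA of Cal51R was thus mainly GPC1, whereas that of Cal51 was divided among GPC4, GPC1 and GPC3.

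The make-up of the syndecans was led by SDC4 in both lines. Their sum was 717 and 759 TPM in Cal51R and 893 and 878 TPM in Cal51. SDC4 made up 66.4% ± 0.624 in Cal51R and 61.1% ± 0.101 in Cal51, and SDC1 made up 11.2% ± 0.542 in Cal51R and 10.7% ± 0.0262 in Cal51. SDC2 made up 16.0% ± 0.208 in Cal51R and 24.4% ± 0.0867 in Cal51, and SDC3 6.40% ± 0.289 in Cal51R and 3.86% ± 0.0120 in Cal51. The sulfatases summed to 26.1 and 31.3 TPM in Cal51R and 23.3 and 20.1 TPM in Cal51. All of the sulfatase sum was SULF2 in Cal51R, against 37.3% ± 2.43 in Cal51, where SULF1 held 62.7% ± 2.43. SULF1 was thus the larger share in Cal51 and had none in Cal51R.

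**Figure D2:**
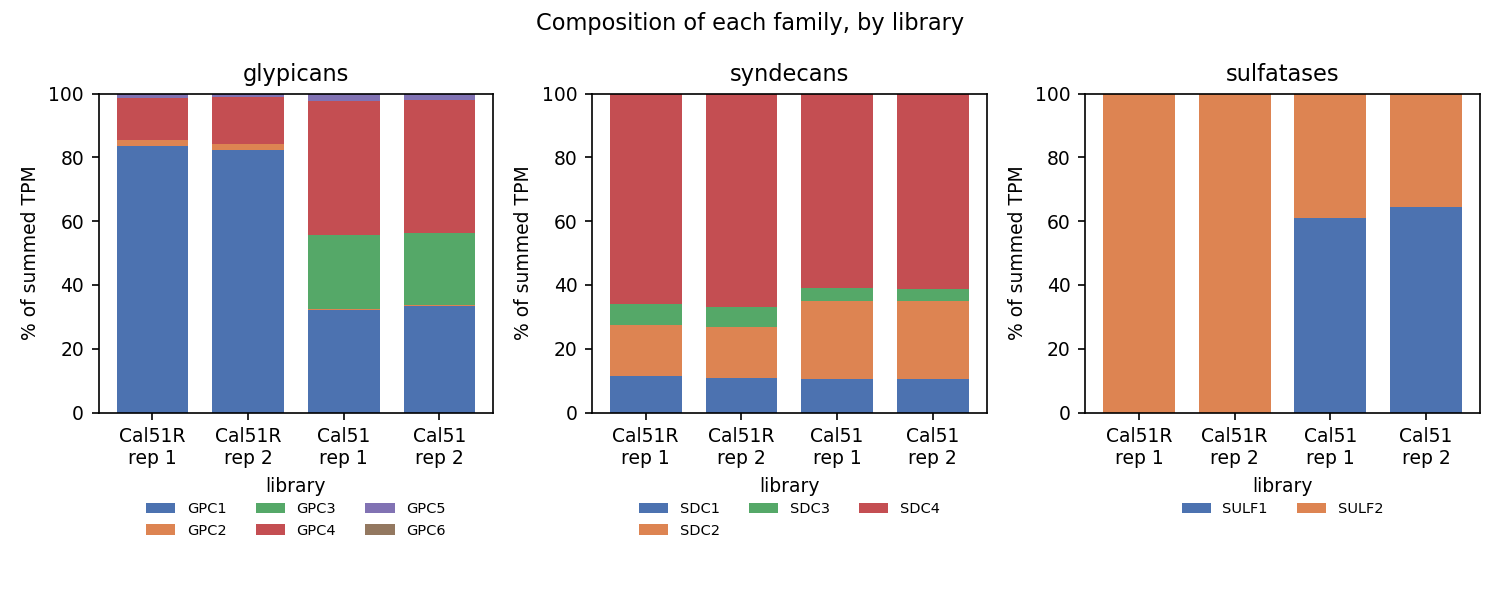
Share of each gene in the summed TPM of its family (percent, stacked bars), with the 2 Cal51R libraries left of the 2 Cal51 libraries and 1 panel each for glypicans, syndecans and sulfatases. GPC1 fills 82.2% and 83.6% of the glypican bars in Cal51R, and the sulfatase bars are entirely SULF2 there.

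The glypicans are taken first, with differences on the CPM scale. GPC3 (gene 2719, GRCh38 chromosome X, 133535745 to 133985594, minus strand) encodes an oncofetal glypican known from liver cancer, whose loss causes the overgrowth syndrome of Simpson, Golabi and Behmel. It had 0 and 0 reads in Cal51R, against 1087 and 861 reads (53.5 and 50.1 CPM) in Cal51. Against 3 reads per library it was at least 347-fold lower in Cal51R, and the lines did not overlap. In Cal51 it stood above 77.0% to 78.6% of all genes.

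GPC4 (gene 2239, chromosome X, 133300103 to 133415489, minus strand) encodes K-glypican, a glypican known to act in Wnt signalling and found in kidney and neural progenitors. It had 33.8 and 33.0 CPM in Cal51R, against 217 and 207 CPM in Cal51. All Cal51R libraries were below all Cal51 libraries, and the log2 fold change was -2.67 ± 0.08 (SE), a level 6.35-fold lower in Cal51R. GPC4 and GPC3 lie 120.3 kb apart on the same strand, and both were lower in Cal51R, though only GPC3 was without reads.

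GPC1 (gene 2817, chromosome 2, 240435663 to 240468076, plus strand) encodes the glypican best known as a co-receptor for fibroblast growth factors. It had 159.7 and 136 CPM in Cal51R, against 124 and 124 CPM in Cal51. The Cal51R libraries lay above those of Cal51 but differed from each other by more than the lower one exceeded Cal51, and the log2 fold change was 0.25 ± 0.08 (SE). Without Cal51R replicate 1 it was 0.13, and with library totals it was 0.45. In TPM, the scale of the shares, GPC1 had 104 and 94.9 in Cal51R, against 72.5 and 68.8 in Cal51. Its large share of the glypican sum in Cal51R thus stood beside a higher level of its own and much lower levels of GPC4 and GPC3. How much higher GPC1 was rested on the scaling.

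GPC2 (gene 221914, chromosome 7, 100169606 to 100177381, minus strand) encodes cerebroglycan, a glypican of developing neurons. Few reads fell on it, with 42 and 45 reads in Cal51R and 19 and 15 in Cal51, or 2.23 and 2.09 CPM in Cal51R and 0.935 and 0.873 CPM in Cal51. The lines did not overlap, and the log2 fold change was 1.24 ± 0.30 (SE), 2.37-fold higher in Cal51R.

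GPC6 (gene 10082, chromosome 13, 93216529 to 94408020, plus strand), a glypican that promotes the growth of long bones, had 1 and 2 reads in Cal51R and 2 and 2 in Cal51. These counts are under the floor of 3 reads in every library, so no fold change is given. Its neighbour GPC5 (gene 2262, chromosome 13, 91398621 to 92867237), which was not among the chosen genes, fell to 2.39 and 1.62 CPM in Cal51R, against 7.93 and 6.87 CPM in Cal51. Its log2 fold change was -1.90 ± 0.21 (SE; adjusted p in edgeR = 7.22e-07).

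Promoter sequences were taken from 250 bases before to 50 after an annotated start. In the RefSeq table for GRCh38.p14 they were held for 7 of the 10 genes, but not for GPC3, SDC2 or SULF1. They are shown for the glypican that led in Cal51R, the one that led in Cal51 and the one nearly without reads in either line, each 5′ to 3′ on the gene's own strand, with GC boxes (GGGCGG on either strand, overlapping matches included) in capitals.
GPC1, chr2:240435413-240435712, plus strand: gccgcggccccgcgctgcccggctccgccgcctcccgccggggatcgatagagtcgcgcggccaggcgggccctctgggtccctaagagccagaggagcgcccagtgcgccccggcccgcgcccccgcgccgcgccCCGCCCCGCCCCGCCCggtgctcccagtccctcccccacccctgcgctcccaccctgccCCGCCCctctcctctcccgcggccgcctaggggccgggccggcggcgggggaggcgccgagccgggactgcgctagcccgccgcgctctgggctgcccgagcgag
GPC4, chrX:133415440-133415739, minus strand: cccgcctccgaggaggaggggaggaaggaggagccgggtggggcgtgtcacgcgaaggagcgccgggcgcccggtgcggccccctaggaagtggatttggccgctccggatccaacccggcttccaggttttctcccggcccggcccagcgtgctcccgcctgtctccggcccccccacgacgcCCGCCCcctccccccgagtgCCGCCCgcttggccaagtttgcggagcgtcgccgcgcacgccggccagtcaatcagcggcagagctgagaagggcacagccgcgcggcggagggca
GPC6, chr13:93226557-93226856, plus strand: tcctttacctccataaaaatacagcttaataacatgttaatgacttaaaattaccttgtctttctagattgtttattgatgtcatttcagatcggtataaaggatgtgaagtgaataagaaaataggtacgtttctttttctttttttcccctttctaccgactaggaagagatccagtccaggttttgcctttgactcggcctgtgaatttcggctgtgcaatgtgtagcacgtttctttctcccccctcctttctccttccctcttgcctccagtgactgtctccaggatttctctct
GPC1 held 45 CpG pairs and 4 GC boxes, GPC4 37 CpG pairs and 2 GC boxes, and GPC6 6 CpG pairs and no GC box. The median over 35116 windows of the same length was 14 CpG pairs, with fewer than GPC1 in 96.5% of windows, fewer than GPC4 in 88.7% and fewer than GPC6 in 33.7%. A GC box was found in 45.0% of all windows and the letters TATAAA, on either strand, in 11.5%. Of the printed sequences, GPC6 held TATAAA and the other two did not. The windows of GPC1 and GPC4 were thus both rich in CpG, although the genes differed between the lines in opposite directions. The window listed for GPC6 begins inside the span of the gene, and other starts were not examined.

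Among the syndecans, all 3 chosen genes were lower in Cal51R on the CPM scale. SDC2 (gene 6383, chromosome 8, 96493813 to 96611790, plus strand), known as fibroglycan and typical of mesenchymal cells, had 157 and 158 CPM in Cal51R, against 337 and 347 CPM in Cal51. The lines were far apart relative to their libraries, with a log2 fold change of -1.12 ± 0.07 (SE), 2.18-fold lower in Cal51R. It was the syndecan with the largest difference.

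SDC1 (gene 6382, chromosome 2, 20200797 to 20225475, minus strand), the main syndecan of epithelia and plasma cells, had 109 and 100.3 CPM in Cal51R, against 138 and 143 CPM in Cal51. No library of one line overlapped the other, and the log2 fold change was -0.42 ± 0.08 (SE). With library totals it was -0.23.

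SDC4 (gene 6385, chromosome 20, 45325288 to 45348424, minus strand), which sits in focal adhesions and works with integrins, had 509 and 507 CPM in Cal51R, against 654 and 678 CPM in Cal51. The Cal51R libraries were lower without overlap, and the log2 fold change was -0.39 ± 0.07 (SE), or -0.19 with library totals. Both SDC1 and SDC4 stayed on the lower side under each alternative run, but the size of their difference rested on the scaling.

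SDC3 (gene 9672, chromosome 1, 30869466 to 30909735), the neural syndecan and not among the chosen genes, had 98.1 and 90.9 CPM in Cal51R, against 79.7 and 82.6 CPM in Cal51. It rose by a log2 fold change of 0.22 ± 0.08 (SE; adjusted p in edgeR = 0.0190). It did not pass without Cal51R replicate 1, without Cal51 replicate 1 or without Cal51 replicate 2 (adjusted p in edgeR = 0.094, 0.211 and 0.107), nor with the replicate number as a block (0.0778), and its adjusted p over the alternatives ran from 0.00011 to 0.211.

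The heparan sulfatases went in opposite directions. SULF1 (gene 23213, chromosome 8, 69466781 to 69660912, plus strand) had 0 and 0 reads in Cal51R, against 659 and 528 reads (32.4 and 30.7 CPM) in Cal51. It was at least 212-fold lower in Cal51R against 3 reads per library. SULF2 (gene 55959, chromosome 20, 47657406 to 47786627, minus strand), whose product removes the same sulfate, had 41.2 and 46.0 CPM in Cal51R, against 16.0 and 13.4 CPM in Cal51. The lines did not overlap, and the log2 fold change of SULF2 was 1.57 ± 0.11 (SE), 2.96-fold higher in Cal51R. In TPM, which carries no TMM scaling, the SULF2 level of Cal51R (26.1 and 31.3) was above the sum of both sulfatases in Cal51 (23.3 and 20.1). On the CPM scale, which does not allow for transcript length, the libraries overlapped in the same comparison. That order thus rested on the scale.

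**Figure D3:**
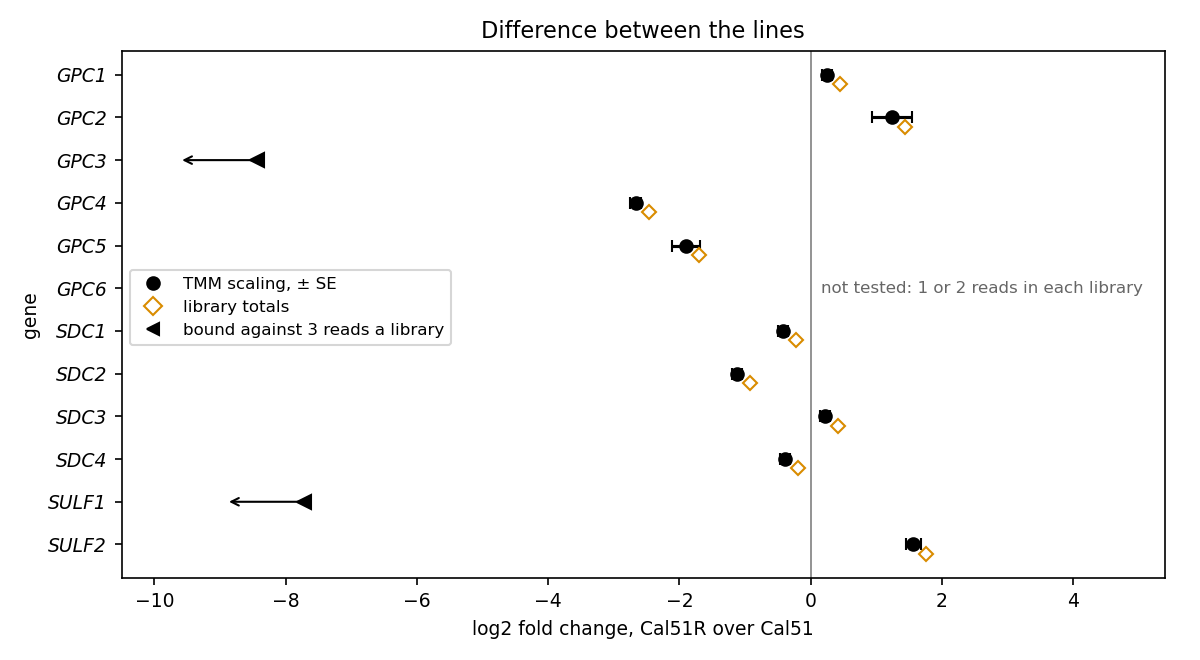
Log2 fold change of each gene, Cal51R over Cal51, as black circles with SE bars under TMM scaling and open diamonds with library totals. Triangles with arrows are bounds for GPC3 and SULF1, which had no reads in Cal51R, and GPC6 had too few reads. The diamonds of SDC1 and SDC4 lie nearer to 0 than the circles, and that of GPC1 farther from it.

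The tested genes next to each member on its chromosome were examined, without counting other family members. Of 17 such neighbours, 8 passed (4 higher and 4 lower in Cal51R) and 9 did not, where 70.8% of all genes passed. On the X chromosome, HS6ST2, a heparan sulfate 6-O-sulfotransferase gene 338.7 kb below GPC4, fell with a log2 fold change of -0.67 ± 0.09 (SE; adjusted p in edgeR = 6.44e-06). On the other side of the pair PHF6, a chromatin protein gene 387.7 kb above GPC3, was at -0.14 ± 0.09 and did not pass (adjusted p in edgeR = 0.173). PHF6 passed without Cal51R replicate 2 (-0.24; adjusted p = 0.0182), and its adjusted p ran from 0.0182 to 0.642 over the alternatives. The deficits of GPC3 and GPC4 were thus larger than the difference of the gene on either side of them.

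Both sulfatase genes have a near neighbour. SLCO5A1 is an organic anion transporter gene 6.1 kb from SULF1. It rose with a log2 fold change of 1.65 ± 0.38 (SE; adjusted p in edgeR = 0.00108) where SULF1 was without reads. Few reads fell on SLCO5A1, with 25 and 40 in Cal51R and 9 and 10 in Cal51. C8orf34, 647.8 kb from SULF1 on the other side, fell by 3.39 ± 0.22 on the log2 scale (adjusted p in edgeR = 9.8e-10). NCOA3, a nuclear receptor coactivator gene beside SULF2, was at -0.01 ± 0.10 (log2, SE; adjusted p in edgeR = 0.925), and ARFGEF2, 1135.1 kb away, did not pass either (0.626). GENCODE places NCOA3 on the opposite strand with an overlap of SULF2, whereas the RefSeq positions leave 0.5 kb between them. No source used here says whether counting was by strand, and whether reads were shared between them was not tested.

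On chromosome 13, TGDS, which lies 166.0 kb above GPC6, fell by 1.87 ± 0.14 on the log2 scale (adjusted p in edgeR = 6.18e-09). On chromosome 7, GAL3ST4, a galactose sulfotransferase gene 1.0 kb from GPC2, rose with a log2 fold change of 4.13 ± 0.26 (SE; adjusted p in edgeR = 5.75e-10), to 8.17 and 7.93 CPM in Cal51R, against 0.492 and 0.407 CPM in Cal51. STAG3, a meiotic cohesin gene 0.3 kb on the other side of GPC2, rose by 0.61 ± 0.19 (log2, SE; adjusted p in edgeR = 0.00943). STAG3 did not pass without Cal51R replicate 2 or Cal51 replicate 2 (adjusted p in edgeR = 0.0757 and 0.110) or with DESeq2 (0.0593), over a range of 0.000395 to 0.110.

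Beside SDC2, the phosphatidylserine synthase gene PTDSS1 fell by 0.81 ± 0.07 (log2, SE; adjusted p in edgeR = 5.94e-08) and the protease gene CPQ, 33.5 kb away, was at 0.16 ± 0.10 and did not pass (adjusted p in edgeR = 0.174). CPQ passed with library totals (0.36; adjusted p = 0.00517; 0.00283 to 0.496 over the alternatives). Beside SDC4, the protease inhibitor gene SLPI rose by 0.92 ± 0.16 (log2, SE; adjusted p in edgeR = 9.43e-05), and SYS1, 13.5 kb away, did not pass (adjusted p in edgeR = 0.647). Of the genes beside SDC1 and GPC1, LAPTM4A, PUM2, COPS9 and ANKMY1 did not pass (adjusted p in edgeR = 0.0813, 0.568, 0.142 and 0.173). Without Cal51R replicate 1, LAPTM4A and COPS9 passed (adjusted p in edgeR = 0.0176 and 0.0166, over ranges of 0.0053 to 0.643 and 0.0166 to 0.785). ANKMY1 passed with library totals (0.0116, over a range of 0.0116 to 0.758).

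The other genes of the pathway were grouped into 7 lists. The median log2 fold change over all genes tested was 0.02, and list medians are to be read against it. With library totals it was 0.21. Over all genes tested 70.8% passed, 35.3% higher and 35.5% lower in Cal51R, and the counts of each list stand against those shares. Among other core proteins that can carry heparan sulfate, 5 of 11 tested genes rose, 5 fell and 1 did not pass (90.9% passed), with a median of -0.04 that became 0.16 with library totals. GPC5 and SDC3 are among them. CD44, the hyaluronan receptor, of which some splice forms carry heparan sulfate, rose to 671 and 685 CPM in Cal51R, against 81.1 and 78.3 CPM in Cal51, a log2 fold change of 3.09 ± 0.08 (SE; adjusted p in edgeR = 6.87e-15). COL18A1, a basement membrane collagen and proteoglycan, rose 2.01-fold, and NRP1, a semaphorin and VEGF co-receptor, 1.53-fold. HSPG2, the gene of perlecan, rose 1.21-fold. Without Cal51 replicate 2 it was at 0.18 (log2) and did not pass (adjusted p in edgeR = 0.194, over a range of 6.24e-08 to 0.194), and 3 genes of the list rose.

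TGFBR3, betaglycan, a co-receptor for TGF-beta, fell to 30.2 and 32.1 CPM in Cal51R, against 156 and 141 CPM in Cal51 (log2 fold change -2.26 ± 0.09, SE; adjusted p in edgeR = 8.79e-13). SRGN, serglycin, the proteoglycan of secretory granules, fell 4.49-fold. SPOCK1, a testican, had 1 read in Cal51R and 246 in Cal51, a ratio of 265 with an exact 95% counting interval of 47.1 to 10513. AGRN, agrin, had the highest TPM of the list in Cal51 and, in Cal51R, stood below CD44 and COL18A1. It had 717 and 649 CPM in Cal51R and 713 and 688 CPM in Cal51, and did not pass (adjusted p in edgeR = 0.675).

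The enzymes that build the linker between core protein and chain, together with those that supply sugar and sulfate donors, formed a list in which 3 of 13 tested genes rose, 7 fell and 3 did not pass (76.9% passed; median -0.21, log2). The glycosyltransferase genes of the linker after its first sugar, B3GALT6, B4GALT7 and B3GAT3, fell 2.22-fold, 1.71-fold and 1.59-fold. The xylosyltransferase gene XYLT1, which starts the linker, rose with a log2 fold change of 2.89 ± 0.25 (SE; adjusted p in edgeR = 3.28e-08) from a low level, at 6.73 and 5.98 CPM in Cal51R, against 0.985 and 0.698 CPM in Cal51. XYLT2, the other xylosyltransferase gene, had 28.5 and 28.1 TPM in Cal51R and 33.4 and 34.1 TPM in Cal51, where XYLT1 had 2.68 and 2.63 TPM in Cal51R and 0.42 and 0.26 TPM in Cal51. XYLT2 fell 1.41-fold (adjusted p in edgeR = 0.000103), so the genes that start the linker moved in opposite directions. PAPSS2, which makes the sulfate donor, rose 2.73-fold, to a mean of 78.3 TPM in Cal51R, against 24.2 TPM in Cal51. PAPSS1, which makes the same donor, averaged 110 TPM in Cal51R and 85.7 TPM in Cal51 and did not pass (adjusted p in edgeR = 0.161). Of the transporters that bring that donor into the Golgi, SLC35B3 rose 1.54-fold and SLC35B2 fell 1.70-fold. UGDH, which makes glucuronic acid donor and had the highest TPM of the list in Cal51R, and the next highest after SLC35B2 in Cal51, did not pass (adjusted p in edgeR = 0.325).

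Of 14 tested genes that polymerise or modify the chain, 4 rose, 9 fell and 1 did not pass (92.9% passed), with a median of -0.34 (log2). With library totals 5 of them fell. EXT1, a subunit of the chain polymerase, fell 1.61-fold, and NDST1, the N-deacetylase and N-sulfotransferase that begins sulfation, fell to 99.5 and 96.5 CPM in Cal51R, against 207 and 201 CPM in Cal51 (log2 fold change -1.06 ± 0.07, SE; adjusted p in edgeR = 1.78e-09). HS6ST1 and HS6ST2, which add the 6-O-sulfate that the sulfatases remove, fell 1.48-fold and 1.59-fold, and the 2-O-sulfotransferase gene HS2ST1 fell 1.53-fold. GLCE, the epimerase that turns glucuronic into iduronic acid, rose 2.23-fold.

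The other 3 genes that rose in this list belong to 3-O-sulfation, a late and rare modification. HS3ST3A1 rose to 63.1 and 61.1 CPM in Cal51R, against 36.4 and 33.9 CPM in Cal51 (log2 fold change 0.82 ± 0.09, SE; adjusted p in edgeR = 3.24e-07). HS3ST3B1 rose 1.31-fold, but did not pass without Cal51R replicate 2, without Cal51 replicate 2 or with DESeq2 (adjusted p = 0.0808, 0.242 and 0.122, over a range of 0.00142 to 0.242). HS3ST3A1 and HS3ST3B1 share a nearly identical catalytic domain, so reads could be divided between them. HS3ST1 had 109 reads in Cal51R and 2 in Cal51, a ratio of 50.6 with an exact 95% counting interval of 13.7 to 423, and HS3ST5 did not pass (adjusted p in edgeR = 0.372).

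Among genes of heparan sulfate breakdown, 1 of 9 tested genes rose, 6 fell and 2 did not pass (77.8% passed), with a median of -0.37 (log2). On log2(FPKM + 1) 3 fell and 2 rose. ARSG and NAGLU fell 1.75-fold and 1.38-fold, and HGSNAT rose 1.30-fold. HPSE, heparanase, which cuts the chains outside the cell, fell 1.29-fold, and did not pass with library totals (-0.17, log2; adjusted p in edgeR = 0.118, over a range of 4.08e-06 to 0.153).

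Chondroitin and dermatan sulfate are the sister chains built on the same linker. Of 16 tested genes that make them, 5 rose, 9 fell and 2 did not pass (87.5% passed), with a median of -0.37 (log2). Without Cal51 replicate 2, 3 rose. CSGALNACT1, which commits the linker to chondroitin, rose to 28.3 and 26.6 CPM in Cal51R, against 3.10 and 4.07 CPM in Cal51 (log2 fold change 2.95 ± 0.14, SE; adjusted p in edgeR = 1.92e-11). CHPF, a polymerase subunit gene and the most abundant, fell 1.37-fold. DSE, the epimerase of dermatan sulfate, fell 4.22-fold, the sulfotransferase genes CHST11 and CHST3 3.05-fold and 1.80-fold, and the polymerase gene CHSY1 1.90-fold. CHST15 had 92 reads in Cal51R and 1 in Cal51, a ratio of 85.4 with an exact 95% counting interval of 14.9 to 3408. UST rose 1.41-fold. CHST7 rose 1.47-fold, but did not pass without Cal51 replicate 2 (adjusted p in edgeR = 0.0745) or with DESeq2 (0.0523), over a range of 0.000171 to 0.0745.

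The next list holds proteins that shed or process the members or bind their tails. Of 12 tested genes, 1 rose, 9 fell and 2 did not pass (83.3% passed), with a median of -0.36 (log2), and 5 fell with library totals and 4 on log2(FPKM + 1). FURIN, the protease that cleaves GPC3 and both sulfatases during maturation, fell to 95.2 and 85.2 CPM in Cal51R, against 218 and 211 CPM in Cal51 (log2 fold change -1.25 ± 0.08, SE; adjusted p in edgeR = 5.02e-10). Of the proteases that can shed syndecans, ADAM10 fell 1.62-fold, MMP14, the most abundant, 1.38-fold, and ADAM17 rose 1.30-fold. SUMF1, the gene of the enzyme that activates sulfatases, fell 1.28-fold (adjusted p in edgeR = 0.00409), and its relative SUMF2 fell 1.51-fold.

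Ligands that bind heparan sulfate and their receptors formed the last list, in which 9 of 23 tested genes rose, 13 fell and 1 did not pass (95.7% passed; median -0.55, log2). MET, the receptor of hepatocyte growth factor, fell to 0.742 and 0.789 CPM in Cal51R, against 140.4 and 122 CPM in Cal51 (log2 fold change -7.41 ± 0.15, SE; adjusted p in edgeR = 6.98e-16). The fibroblast growth factor receptor genes FGFR3 and FGFRL1 fell 4.12-fold and 2.71-fold, and FGFR1 fell 1.46-fold. FGFR2, which had the highest TPM among these receptor genes (150.5 and 166 in Cal51R and 107 and 91.8 in Cal51), rose 1.33-fold, and FGFR4 rose 1.48-fold (adjusted p in edgeR = 0.000102 and 0.000149). XYLT2, PAPSS1, SUMF1, FGFR1, FGFR2 and FGFR4 were named after their values were seen. SMO, the transducer of Hedgehog signals, fell 2.36-fold. FGF2, a classical heparan-binding growth factor, rose to 130.1 and 149 CPM in Cal51R, against 70.5 and 64.2 CPM in Cal51 (log2 fold change 1.05 ± 0.09, SE; adjusted p in edgeR = 1.44e-08). FGF18 and PDGFA rose 1.58-fold and 1.70-fold, and ROBO1, a receptor for Slit ligands, 4.23-fold. MDK, midkine, which was the most abundant, fell 1.54-fold.

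**Figure D4:**
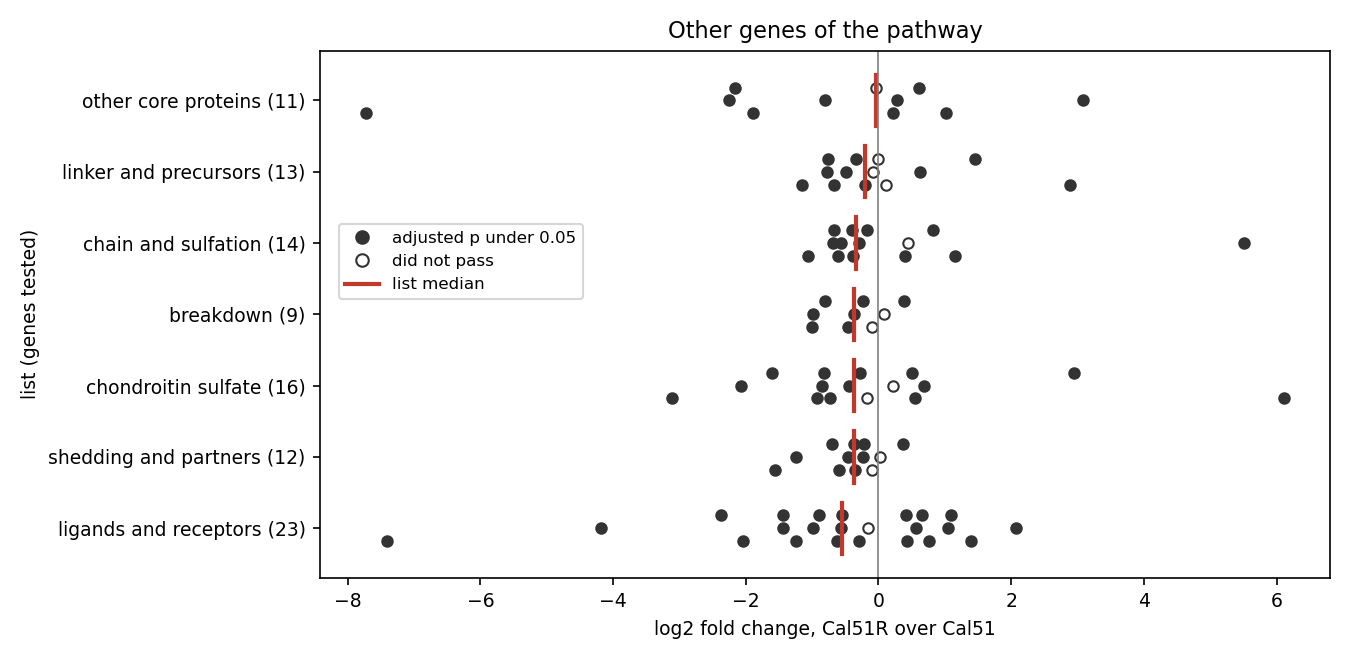
Log2 fold change, Cal51R over Cal51, of every tested gene in the 7 pathway lists, with the number tested in brackets. Filled circles passed an adjusted p of 0.05, open circles did not, red bars are list medians, and the vertical spread within a row has no meaning. Fitted values of genes with 0 to 3 reads in a line, such as SPOCK1, HS3ST1 and CHST15, depend on the small count added in the fit. The medians lie between -0.55 and -0.04, where the median of all genes tested is 0.02. With library totals that of the core proteins becomes 0.16 and that of all genes tested 0.21.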

How the data were processed

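Libraries were made from oligo(dT)-selected, fragmented RNA with PCR amplification and read as DNA nanoballs, per the labels' protocols. RSEM 1.2.8, HISAT2 2.1.0, Bowtie2 2.2.5 and DESeq appear with hg38 in the submitters' processing notes, without their roles, and no source used here names the annotation. Per the file headers, the authors deposited estimated counts, TPM and FPKM for each library, and no sample's column was left over. TPM gave levels and shares, and FPKM alternatives only.

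Estimated counts were rounded and tested with edgeR 4.0.16 in R 4.3.3 (quasi-likelihood, TMM scaling, filterByExpr with a minimum count of 10, line as the only term). P-values were adjusted by Benjamini-Hochberg over all genes tested, and a gene is said to have risen or fallen at an adjusted p under 0.05. SE is the log2 fold change over the root of F. Where a line had no read, the bound was set against 3 counts per library. Exact 95% intervals and limits cover counting error only.

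The same results were recomputed with library totals, with RLE factors, with DESeq2 1.42.0, without the filter or with at least 5 CPM in 2 libraries, and with limma 3.58.1 on log2(FPKM + 1) and log2(FPKM + 0.1) for genes of at least 1 FPKM in 2 libraries, which understate the change of low genes. Further fits had the replicate number as a block or dropped 1 library, where the lone library of a line is assumed to vary like the other line's. The functions were tested on simulated data. The rule for naming took, by smallest p, up to 4 risers and 4 fallers per pathway list and its most abundant gene by TPM, and beside each member the nearest tested genes. A gene that this rule picks is not reported here. The members and lists were chosen with earlier results of these data known. Positions are those of RefSeq on GRCh38.p14, a patch release of the hg38 assembly, matched on gene ID for 99.6% of genes, and strands and overlaps from GENCODE.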

Additional observations from a re-analysis of the deposited data

How the results depend on the processing

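No member's direction turned under any alternative run. Library totals moved the log2 fold changes of GPC1, GPC2, GPC4, SDC1, SDC2, SDC4 and SULF2 to 0.45, 1.44, -2.47, -0.23, -0.92, -0.19 and 1.76, and the bounds of GPC3 and SULF1 to -8.24 and -7.53 (log2). Log2(FPKM + 1) gave 0.43, -2.32, -0.23, -0.91 and -0.19 for GPC1, GPC4, SDC1, SDC2 and SDC4, and log2(FPKM + 0.1) gave 0.44, -2.45, -0.24, -0.92 and -0.19 for the same genes and 1.75 for SULF2. With the filter of 5 CPM, GPC4, SDC2 and SDC4 were at -2.63, -1.08 and -0.35. Leaving out each library in turn gave 0.13 to 0.36 for GPC1, 1.19 to 1.29 for GPC2, -2.71 to -2.64 for GPC4, -0.49 to -0.37 for SDC1, -1.15 to -1.11 for SDC2, -0.43 to -0.37 for SDC4 and 1.44 to 1.70 for SULF2, and bounds of -8.55 to -8.35 for GPC3 and -7.83 to -7.64 for SULF1. GPC2 was left out by the FPKM and CPM filters, and GPC3 and SULF1 have no bound in FPKM. The shares of the family sum taken from FPKM in place of TPM moved by less than the spread between libraries for each member but GPC6, whose share in Cal51 was 0.0104% from FPKM and 0.00930% from TPM.

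The genes called over all tested numbered 8180 to 9813 with 1 library left out, against 9685, and 64.7% of called genes were higher with library totals and 63.7% on log2(FPKM + 1), against 49.9%. Of the lists, chain and sulfation had 5 lower genes with library totals, breakdown had 2 higher with library totals, 2 higher and 3 lower on log2(FPKM + 1), and 2 higher and 3 lower on log2(FPKM + 0.1), shedding and partners had 5 lower with library totals, 4 lower on log2(FPKM + 1) and 4 on log2(FPKM + 0.1), and chondroitin sulfate had 3 higher with DESeq2 and 3 with the filter of 5 CPM. With 1 library left out, 3 to 5 other core proteins and 3 to 6 chondroitin genes were higher. The cause was not tested. Of 78 other named genes, 13 lost or gained a call under some alternative and none turned direction with a call. PAPSS1, SUMF1 and the cell type markers were not among the genes counted there.

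Same-numbered libraries of the lines deviated in opposite directions (r = -0.275 across 13674 genes, which are not independent replicates), and the labels give no pairing. With the replicate number as a block 8905 genes were called, and with the crossed pairing, chosen after seeing the data, 10657. The bounds of GPC3 and SULF1 rest on the depth through the floor of 3 reads, 0.139 to 0.175 CPM, and GPC6 lay under that floor in all 4 libraries.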
